A study of Homo sapiens with 80 samples.

Results

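Interferon-stimulated genes are genes that a cell switches on when interferon binds its receptors, and 44 of them, taken by symbol from a named list, are described here across 2 lymphoma cell lines. All 44 were among the 58735 genes of each of the 3 RNA-seq tables, 41 were among the 17463 genes of the 3′ end counting table (DGE, which counts reads from the ends of transcripts), and 37 were among the 17792 genes of the PRO-seq table (which counts reads from RNA polymerase engaged on a gene, and so reads transcription rather than stored RNA). MX1, IFI44L and EPSTI1 were not listed in the DGE table, and MX1, IFI27, IFI44L, GBP4, GBP5, RSAD2 and EPSTI1 were not listed in the PRO-seq table.

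The lines were SU-DHL-1, labelled lymph node, and KI-JK, labelled pleural effusion, both grown from ALK+ anaplastic large cell lymphoma (ALCL), in which a fusion of the ALK kinase drives malignant T cells. The series holds 80 samples, of which 42 gene-count libraries in 14 groups of 3 are used and 38 ChIP-seq samples are not analysed here. Lenalidomide binds cereblon and turns its ubiquitin ligase onto zinc finger proteins, among them IKZF1 and ZFP91. CSNK2B encodes the regulatory subunit of the kinase CK2. Parental SU-DHL-1 cells were compared with 3 independent pools of SU-DHL-1 cells, called regrown, that were made resistant by culture in rising lenalidomide and then kept off the drug for at least 2 months. The labels number the pools, and the PRO-seq, DGE and RNA-seq libraries of the regrown cells come from the same 3 pools. In the DGE table, parental and regrown cells received DMSO or 2.5 uM lenalidomide for 18 h. In the ZFP91 RNA-seq table, all 4 groups, the ones labelled ZFP91 WT included, carried Cas9 and an inducible guide RNA vector against ZFP91. The knockout groups received doxycycline at 1 ug/ml for 96 h and the WT groups received none, so knockout and doxycycline cannot be told apart. In the other RNA-seq tables, parental SU-DHL-1 or KI-JK cells were transduced with a CSNK2B overexpression vector or an empty vector. Nothing in the labels says that libraries of parental or transduced cells came from separate cultures, so their p-values measure the spread between libraries, which may be technical. In bulk libraries, fewer cells that make a transcript and less RNA per cell cannot be told apart.

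Type I interferons bind IFNAR1 and IFNAR2 and activate JAK1 and TYK2, after which a complex that includes STAT2 and IRF9 enters the nucleus and binds the interferon-stimulated response element (ISRE) in promoters. Interferon gamma binds IFNGR1 and IFNGR2 and acts through another element, the GAS site. The genes that follow encode enzymes and binding proteins that act on viral RNA, sensors, the ubiquitin-like protein ISG15 and its enzymes, guanylate-binding proteins, and factors that feed back on the pathway itself.

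The promoters show the feature that the pathway reads. RefSeq promoter windows of 300 bases, 250 before and 50 after the annotated start, were at hand for 34 of the 44 genes, in 46 windows on GRCh38.p14. The ISRE core was searched as GAAANNGAAA on both strands. It was present in 23 of the 34 genes (67.6%) and in 27 of the 46 windows (58.7%), while 1255 of all 35116 windows (3.57%) and 1195 of all 27305 genes (4.38%) held it. On the gene's own strand alone the share was 14 of 34 (41.2%). The GAS core, searched as TTCNNNGAA, was present in 10 of the 34 genes (29.4%) and in 9.38% of all genes. The windows of HERC6, SAMD9L, STAT2 and CMPK2 held no ISRE match. A match was present in 17 of the 24 genes with a window that passed the test in at least 1 of the 11 comparisons between 2 groups, and in 6 of the 10 that passed in none. The next lines show 170 bases upstream of the start for the 4 genes with a match that passed in the most comparisons, ties taken by the smallest p, 5′ to 3′ on the gene's strand, with ISRE matches in capitals, because the same element stands before genes that moved in opposite directions below.
IFI6: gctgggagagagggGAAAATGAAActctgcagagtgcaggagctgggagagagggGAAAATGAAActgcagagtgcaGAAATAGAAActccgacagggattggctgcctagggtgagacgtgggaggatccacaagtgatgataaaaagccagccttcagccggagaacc
SAMD9: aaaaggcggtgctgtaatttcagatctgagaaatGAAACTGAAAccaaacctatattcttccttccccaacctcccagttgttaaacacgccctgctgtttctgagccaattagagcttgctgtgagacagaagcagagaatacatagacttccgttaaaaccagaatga
PARP14: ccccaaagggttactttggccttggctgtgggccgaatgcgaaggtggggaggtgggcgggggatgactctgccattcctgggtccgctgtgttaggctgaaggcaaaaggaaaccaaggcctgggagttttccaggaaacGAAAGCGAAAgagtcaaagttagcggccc
OAS3: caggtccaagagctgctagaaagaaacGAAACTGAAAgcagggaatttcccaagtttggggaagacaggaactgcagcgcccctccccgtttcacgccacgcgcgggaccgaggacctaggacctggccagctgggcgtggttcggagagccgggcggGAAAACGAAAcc
These stretches lie at chr1:27672193-27672362 on the minus strand (IFI6), chr7:93117980-93118149 on the minus strand (SAMD9), chr3:122680669-122680838 on the plus strand (PARP14) and chr12:112938304-112938473 on the plus strand (OAS3). The IFI6 stretch holds 3 matches that begin 156, 115 and 93 bases before the start, and the OAS3 stretch holds matches that begin 143 and 12 bases before it. SAMD9 has 1 match, 136 bases before the start, and PARP14 has 1, 29 bases before it. A match describes these letters and is not evidence that a factor binds there.

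Library totals ran from 33467869 to 47199672 counts in PRO-seq, from 15387114 to 23052717 in the ZFP91 table, from 14444523 to 24115731 in the SU-DHL-1 vector table and from 23073232 to 28927808 in the KI-JK vector table. DGE was far shallower, at 41571 to 395827 counts. In the ZFP91 table, 13 lymphoma and T cell markers summed to 4634 to 5004 CPM (counts scaled to library size) in parental cells without doxycycline. In regrown cells without it they summed to 3984 to 4590 CPM. After the knockout the sums were 5048 to 5098 CPM and 3804 to 4054 CPM. Of 8 tested without doxycycline, PRF1 and TRBC2 rose, and TNFRSF8, GZMB, IL2RA and CD5 fell. In PRO-seq the sums were 3331 to 3939 CPM and 2637 to 3324 CPM, and of 7 tested ALK rose and CD5 fell. CD2 was at 0 in all 4 groups of the ZFP91 table and CD3E at 0 in 3 of them. A list of 7 B cell markers summed to at most 0.802 CPM there. Lists of myeloid and of epithelial or stromal markers also differed between regrown and parental cells. A list of 10 myeloid markers summed to 316 to 323 CPM in parental cells without doxycycline and 26.4 to 32.6 CPM in regrown cells, with LYZ and MPO at 0 in both; of the 4 tested, CSF1R and CD163 fell and S100A9 rose. The list of 8 epithelial or stromal markers summed to 166 to 176 CPM and 555 to 763 CPM, and of the 4 tested VIM alone passed, with a rise. In PRO-seq the myeloid list summed to 198 to 230 CPM in parental and 83.6 to 136 CPM in regrown libraries, and of the 3 tested CD68 and CD163 fell and S100A9 rose. Of 3 epithelial or stromal markers tested there, VIM rose and KRT18 fell. The part of these differences in the results between regrown and parental cells was not tested.

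The first question is whether transcription of these genes differed between regrown and parental cells. In PRO-seq all 37 listed genes were tested, 7 rose and 2 fell at an adjusted p under 0.05 by edgeR's quasi-likelihood test with Benjamini-Hochberg adjustment over all genes. The background was a rise in 14.0% and a fall in 16.2% of the 16456 genes tested, beside 18.9% and 5.41% of the 37 genes. The median log2 fold change was 0.12 over the 37 genes and 0.02 over all genes. By role, 4 of 18 antiviral effectors rose and 1 fell, 1 of 5 genes of the ISG15 system rose, and 2 of 6 transcription factors and cofactors rose while 1 fell. None of 3 sensors or 2 guanylate-binding proteins passed the test.

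OAS3, one of the synthetases that make 2′-5′ linked oligoadenylate to switch on the RNA-cutting enzyme RNase L, showed the lowest log2 change of the set. Its PRO-seq level was 5.98, 5.51 and 4.89 CPM in the 3 parental libraries and 0.663, 0.326 and 0.796 CPM in the 3 regrown pools. The groups did not overlap, and the log2 fold change was -3.18 ± 0.31 (SE, n = 3 against 3; edgeR adjusted p = 5.3e-05). OAS3 lies between OAS1 and OAS2 on chromosome 12 (hg38, plus strand), with OAS1 at chr12:112906973-112919903, OAS3 at chr12:112938512-112973251 and OAS2 at chr12:112978445-112988805. OAS1 read 5.80, 6.07 and 4.44 CPM in parental and 3.04, 4.06 and 5.59 CPM in regrown cells and did not pass the test (log2 fold change -0.35 ± 0.25, adjusted p = 0.33). OAS2 read 3.29, 2.89 and 3.22 CPM against 2.38, 2.41 and 0.817 CPM, lower in every pool but short of the threshold (-0.76 ± 0.36, adjusted p = 0.14). The 24 nearest other tested genes had a median log2 change of 0.04, from -1.12 to 0.42, and none had moved as far as OAS3.

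Among the effectors that rose, IFIT5 had the smallest adjusted p. The IFIT proteins bind the 5′ ends of foreign RNA. IFIT5 (chr10:89414747-89420997, plus strand) read 2.85, 3.42 and 4.38 CPM in parental and 11.6, 12.9 and 12.5 CPM in regrown cells, a log2 fold change of 1.79 ± 0.20 (adjusted p = 0.00011). Every pool stood above every parental library, and none of the 24 neighbouring genes had moved as far. IFIT1 went from 0.366, 0.442 and 0.213 CPM to 1.33, 2.11 and 1.61 CPM (2.31 ± 0.35, adjusted p = 0.00077), from a total of 37 parental counts. IFIT3 rose by less, from 1.93, 3.80 and 2.21 CPM to 4.61, 4.74 and 4.88 CPM (0.85 ± 0.27, adjusted p = 0.037), and lost the call when any 1 of 5 of the 6 libraries was left out (adjusted p up to 0.136 over the alternatives). XAF1, a pro-apoptotic antagonist of XIAP, read 5.33, 6.07 and 5.21 CPM in parental cells and 15.9, 15.1 and 4.82 CPM in pools 1, 2 and 3. Its groups overlapped because pool 3 lay below all parental libraries, and its call (1.11 ± 0.37, adjusted p = 0.043) was lost on leaving out any library other than pool 3. IFIT1, IFIT2 and IFIT3 overlap LIPA in RefSeq, and LIPA itself had a log2 fold change of -0.35 ± 0.13 (adjusted p = 0.072).

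HERC6 (chr4:88379048-88443111, plus strand) is a relative of HERC5, the human ligase that attaches ISG15. It read 1.15, 0.648 and 1.36 CPM in parental and 6.00, 4.34 and 6.28 CPM in regrown cells (2.39 ± 0.30, adjusted p = 0.00022), with no overlap. Of its 24 neighbours, 2 had moved further, in a range from -2.93 to 3.27. HERC5 did not pass the test (0.20 ± 0.11, adjusted p = 0.19). PARP9 and PARP14, ADP-ribosyltransferases that act as cofactors of interferon signalling, read 55.3, 56.4 and 52.1 CPM against 82.3, 89.2 and 83.0 CPM (0.64 ± 0.09, adjusted p = 0.00040) and 52.6, 56.1 and 45.1 CPM against 78.3, 78.2 and 84.7 CPM (0.65 ± 0.10, adjusted p = 0.00096). Both sit in a stretch of chromosome 3 whose neighbours were also higher, with median log2 changes of 0.48 around PARP9 and 0.44 around PARP14. IRF9, the DNA-binding part of the ISRE complex, fell from 37.4, 38.2 and 41.7 CPM to 26.4, 30.8 and 27.3 CPM (-0.47 ± 0.11, adjusted p = 0.0095). Its 24 neighbours had a median log2 change of -0.31, from -1.41 to 0.25, and 5 of them had moved at least as far. STAT2, the partner of IRF9, read 49.3, 49.0 and 50.4 CPM against 45.9, 54.9 and 60.2 CPM, and the groups overlapped.

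**Figure D1:**
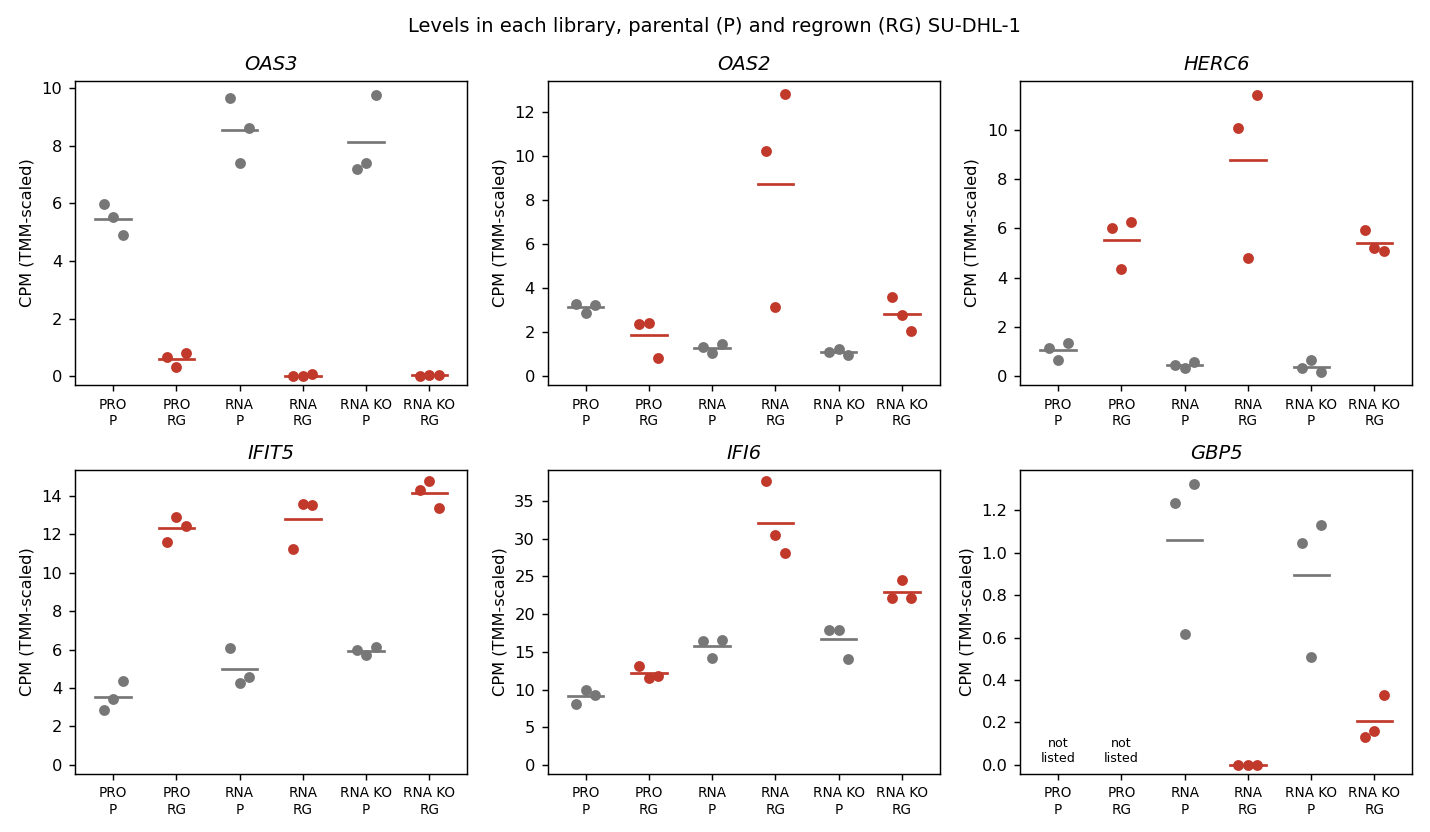
CPM (vertical axis of each panel) of OAS3, OAS2, HERC6, IFIT5, IFI6 and GBP5 in each library, with points for libraries and horizontal lines for group means, in PRO-seq and in RNA-seq without and with the ZFP91 knockout, parental beside regrown. OAS3 falls to or near 0 in regrown RNA-seq libraries, HERC6 and IFIT5 stand higher in regrown libraries of every assay shown, and OAS2 is higher in regrown RNA-seq libraries but not in PRO-seq.

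The same question was put to RNA level in cells without doxycycline. Of the 44 genes, 39 were tested, 16 rose and 5 fell, against a background of 22.6% of all 13379 genes that rose and 21.1% that fell. The share that rose was 41.0% of the tested genes and the share that fell 12.8%. The median log2 fold change was 0.25 over the 39 genes and -0.00 over all genes. Of 19 effectors tested, 8 rose and 2 fell, both genes of less settled role that passed rose, and 2 of 5 genes of the ISG15 system rose. The 5 genes with too few counts to test included MX1, which had no count in any of these 6 libraries.

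OAS3 RNA read 9.65, 7.39 and 8.62 CPM in parental and 0, 0 and 0.0601 CPM in regrown cells. That is 486 counts against 1, a level 499-fold lower with a 95% counting interval of 89.2 to 19756, which covers counting error only (edgeR adjusted p = 4.1e-08). Its neighbour OAS2 moved the other way, from 1.35, 1.06 and 1.47 CPM to 10.2, 3.15 and 12.8 CPM (log2 fold change 2.74 ± 0.43, adjusted p = 0.00016). The pools did not overlap the parental libraries, and pool 2 was the lowest of the pools. Around both genes the 24 nearest others ranged from -1.25 to 0.57 with a median of 0.13, so neither change was shared by the neighbourhood. OAS1 read 5.61, 5.04 and 7.05 CPM against 6.22, 3.69 and 5.89 CPM and overlapped.

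HERC6 had the largest rise on the log2 scale, from 0.449, 0.336 and 0.568 CPM to 10.1, 4.81 and 11.4 CPM (4.24 ± 0.40, adjusted p = 1.5e-06). As with OAS2, pool 2 was lowest. TRIM22, a ubiquitin ligase that restricts viruses, had the same order of pools, with 18.4, 20.9 and 22.0 CPM in parental libraries and 43.4, 24.8 and 45.7 CPM in pools 1 to 3 (0.89 ± 0.19, adjusted p = 0.0015). The gene length score described below had that order of pools too, and with it as a covariate TRIM22 did not pass. IFIT5 went from 6.06, 4.25 and 4.59 CPM to 11.2, 13.6 and 13.5 CPM (1.36 ± 0.20, adjusted p = 8.4e-05). CMPK2, a mitochondrial nucleotide kinase encoded beside the antiviral enzyme RSAD2, went from 7.57, 11 and 7.67 CPM to 16.7, 24 and 18.4 CPM (1.17 ± 0.19, adjusted p = 0.00022). RSAD2 overlaps CMPK2 in RefSeq and did not pass the test (0.70 ± 0.40, adjusted p = 0.17). IFI6 (chr1:27666064-27672192, minus strand), an anti-apoptotic protein of the mitochondrion, rose by 1.03 ± 0.14 on the log2 scale, from 16.4, 14.2 and 16.5 CPM to 37.7, 30.5 and 28.1 CPM (adjusted p = 4.7e-05). In each of these genes that passed, every pool stood above every parental library.

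Smaller rises passed in PARP14, from 78.5, 81.1 and 69.3 CPM to 139, 124 and 148 CPM (0.84 ± 0.10, adjusted p = 1.2e-05), and in MX2, a capsid-binding GTPase, from 31.8, 32.1 and 28.5 CPM to 49.8, 42.9 and 43.8 CPM (0.56 ± 0.11, adjusted p = 0.00082). The others that rose were GBP1, SAMD9, PARP9, HERC5, DDX60, IFIT3, SAMD9L and IFI35, with log2 fold changes between 0.24 and 0.67. SAMD9L overlapped (104, 97.8 and 93.9 CPM against 123, 102 and 140 CPM) and kept its call in 2 of 12 alternative settings. Among neighbours of PARP9 the median was 0.56, above its own 0.40.

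The genes that fell besides OAS3 were GBP5, STAT2, IFIH1 and BST2. GBP5 (chr1:89256189-89272860), a guanylate-binding protein of inflammasome and antimicrobial responses, had 61 counts over the parental libraries (1.23, 0.616 and 1.33 CPM) and none in the regrown pools, a level at least 20.9-fold lower with a floor of 3 counts over the group (adjusted p = 0.00041). STAT2 read 63.7, 69.5 and 67.8 CPM against 51.9, 45.5 and 50.0 CPM (-0.45 ± 0.10, adjusted p = 0.0017). IFIH1, the sensor of long double-stranded RNA also called MDA5, read 26.6, 24.2 and 22.6 CPM against 17.0, 19.3 and 18.2 CPM (-0.43 ± 0.13, adjusted p = 0.014). BST2, the tetherin that holds budding virus at the membrane, read 152, 160 and 195 CPM against 127, 152 and 108 CPM (-0.39 ± 0.12, adjusted p = 0.019). ISG15 itself read 13.8, 16.2 and 21.0 CPM against 19.5, 17.4 and 12.3 CPM, and IRF7, a factor that amplifies interferon production, read 36.1, 30.5 and 30.5 CPM against 38.0, 32.1 and 31.7 CPM. Both overlapped and did not pass the test (log2 fold changes -0.05 ± 0.19 and 0.07 ± 0.12).

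Libraries of the ZFP91 table also differed in how reads fell on long and short genes. A gene length score per library, the mean deviation from the average over libraries of the genes in the top quartile of length minus that of the genes in the bottom quartile, was 0.10 to 0.45 in regrown cells without doxycycline, -0.21 to 0.03 in parental cells without it, -0.16 to -0.07 in regrown knockout cells and -0.32 to 0.19 in parental knockout cells. In regrown pools 1, 2 and 3 without doxycycline it was 0.22, 0.10 and 0.45, the order seen for OAS2, HERC6 and TRIM22. With the score as a covariate, an alternative chosen after seeing the data, 10 of the 21 genes kept their call between regrown and parental cells without doxycycline (OAS3, HERC6, IFIT5, CMPK2, PARP14, MX2, STAT2, GBP5, IFI6 and IFI35). OAS2 had a log2 fold change of 1.52 with an adjusted p of 0.090, TRIM22 one of 0.49 with an adjusted p of 0.24, and BST2 (0.06) and SAMD9L (-0.04) changed sign. Every regrown library without doxycycline had a higher score than every parental one without it. Whether the score or the regrown state goes with the lost calls therefore cannot be told apart in these libraries. The count of all genes also fell under this setting and is given in the closing section.

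After the knockout, 39 genes were tested between regrown and parental cells, 11 rose and 6 fell, against a background of 18.6% and 19.8% of 13444 genes. The median log2 fold change was 0.19 and that of all genes 0.00. These 6 libraries are not those of the comparison without doxycycline, though the regrown ones come from the same pools. OAS3 was again near absence, with 7.2, 7.41 and 9.76 CPM against 0, 0.0526 and 0.0470 CPM, or 472 counts against 2 (266-fold lower, counting interval 73.2 to 2201; adjusted p = 3.3e-06). HERC6 read 0.327, 0.660 and 0.181 CPM against 5.93, 5.20 and 5.08 CPM (3.76 ± 0.36, adjusted p = 6.1e-05), with the pools now close together. IFIT5 read 5.96, 5.74 and 6.15 CPM against 14.3, 14.8 and 13.4 CPM (1.22 ± 0.12, adjusted p = 7.8e-05), and CMPK2 6.48, 8.53 and 9.26 CPM against 23.7, 20.5 and 21.1 CPM (1.39 ± 0.15, adjusted p = 0.00012). These 4 genes kept both direction and call under all 12 alternative settings of each RNA-seq comparison.

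IFIH1 fell from 31.5, 25.6 and 29.0 CPM to 15.3, 17.3 and 16.3 CPM (-0.84 ± 0.11, adjusted p = 0.00040). STAT2 read 61.7, 63.5 and 60.8 CPM against 50.9, 46.1 and 46.2 CPM (-0.40 ± 0.08, adjusted p = 0.0036). OAS2 was higher in every pool, at 3.59, 2.79 and 2.07 CPM against 1.11, 1.22 and 0.949 CPM (1.34 ± 0.31, adjusted p = 0.0075). GBP5 had 51 counts against 13 (-2.11 ± 0.55, adjusted p = 0.014), so some GBP5 reads were present in the regrown knockout libraries. TRIM22 also rose, from 18.3, 20.1 and 19.5 CPM to 33.7, 28.1 and 25.3 CPM (0.57 ± 0.12, adjusted p = 0.0063), and IFIT2 fell from 4.78, 3.61 and 3.07 CPM to 0.476, 0.788 and 2.16 CPM (-1.75 ± 0.47, adjusted p = 0.016). The remaining calls were rises of PARP9, USP18, MX2, IFI44, IFI35 and IFI6 and a fall of GBP2. The count of 17 was 10 without parental knockout replicate 3, 11 without regrown knockout replicate 1 and 10 without regrown knockout replicate 2. With each library left out in turn, the count of all genes ran from 3731 to 6056. With the length score as a covariate, all 17 kept their call and 25 genes passed. The count of all genes under that setting is not given here, so the 25 is not set against a background. LIPA, which overlaps IFIT1 to IFIT3, fell in this comparison (-0.38 ± 0.08, adjusted p = 0.0064).

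Across PRO-seq and both RNA-seq comparisons of regrown with parental cells, IFIT5, HERC6 and PARP9 rose in all 3, OAS3 fell in all 3, no gene passed in opposite directions, and 16 passed in none. Of these 16, MX1, GBP4, IFI27, IFI44L and EPSTI1 were tested in none of the 3. They were not listed in PRO-seq and had too few counts in RNA-seq. Of the 37 genes tested in all 3, 8.11% thus rose throughout, 2.7% fell throughout and 27% passed in none. Over all 11766 genes tested in all 3 the shares were 6.28%, 7.23% and 31.3%. Set beside RNA without doxycycline, the 37 genes tested in both assays had the same sign in 29 cases, and 6 genes (HERC6, IFIT3, IFIT5, OAS3, PARP14 and PARP9) passed in both in the same direction. Another 14 passed in RNA-seq alone, IFIT1, IRF9 and XAF1 passed in PRO-seq alone, and 14 passed in neither. Pearson's r of the log2 changes over these 37 genes was 0.755, a description across genes that rests on the same 3 pools. It includes OAS3, the lowest in both assays (-3.18 and -8.41), and r without OAS3 was not computed. The same counts and r over all genes tested in both assays were not computed. Whether these 37 genes differ from other genes in this was therefore not tested. Of the 8 genes with opposite signs in the assays, OAS2 had the widest gap, with a PRO-seq change of -0.76 ± 0.36 against an RNA change of 2.74 ± 0.43. CMPK2 had a PRO-seq change of -0.13 (adjusted p = 0.56) against 1.17 in RNA. The difference between the assays was not tested, since they were counted in separate tables.

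**Figure D2:**
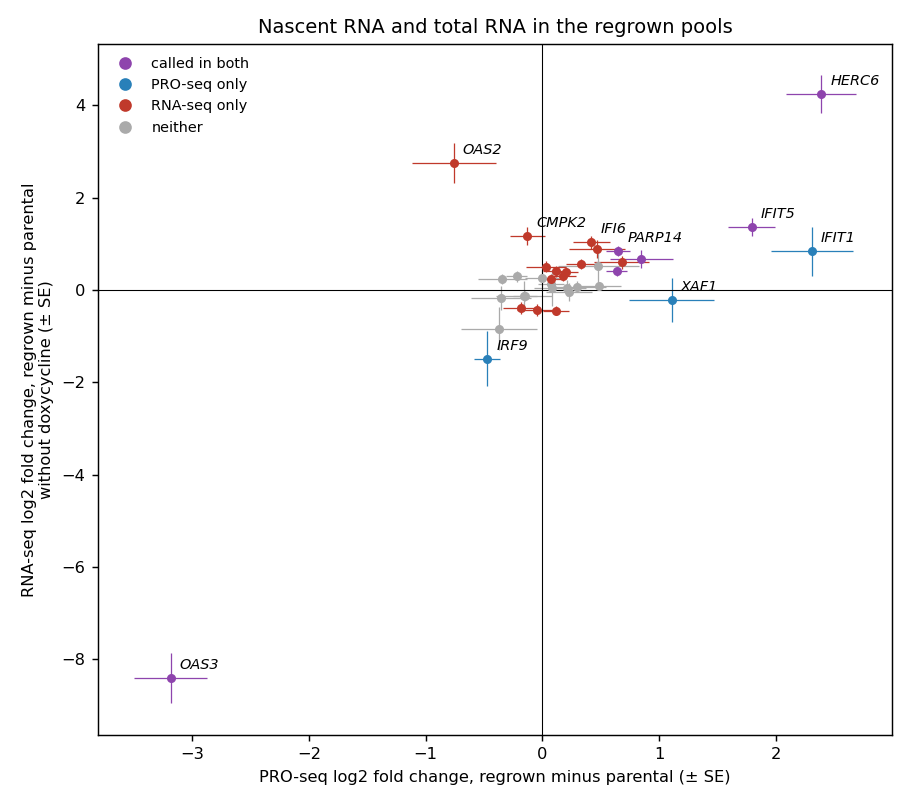
Log2 fold change regrown minus parental in PRO-seq (horizontal) against RNA-seq without doxycycline (vertical) for the 37 genes tested in both, with bars of 1 SE. OAS3 lies far down on both axes, HERC6 and IFIT5 lie up on both, and OAS2 lies below 0 in PRO-seq and at 2.74 in RNA-seq.

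The DGE table asked how the genes responded to lenalidomide itself. Its depth let 14 to 16 of the 41 listed genes into each comparison between 2 groups, so a change in the others was not detectable here. Lenalidomide moved none of 16 genes tested in parental cells past the threshold by edgeR or by DESeq2 (0.845% of 5796 genes passed), with 3 at an unadjusted p under 0.05. Among all 5796 genes, 503 had such an unadjusted p by edgeR. The myeloid list summed to 144 to 173 CPM under DMSO and 287 to 537 CPM under lenalidomide in these parental cells, where CD163, the only one tested, rose, and its part was not tested. Lenalidomide also moved none of 14 in regrown cells by either tool (0.230% of 5661 genes passed), with 0 at an unadjusted p under 0.05. Among all 5661 genes, 283 had such an unadjusted p by edgeR. In regrown cells the smallest p were those of SP100, a nuclear body protein, with 25.1, 50.5 and 43.0 CPM against 74.4, 84.3 and 57.2 CPM, and HERC5, with 83.8, 109 and 143 CPM against 66.2, 53.6 and 88.7 CPM (adjusted p = 0.997 for both). The genes nearest to the threshold in parental cells were SAMD9L and SAMD9, neighbouring genes on chromosome 7 that restrict poxviruses and cell growth. SAMD9L read 91.5, 125 and 96.1 CPM under DMSO and 218, 161 and 268 CPM under lenalidomide, without overlap (log2 fold change 0.93 ± 0.26, adjusted p = 0.095). SAMD9 read 195, 196 and 216 CPM against 387, 311 and 268 CPM, also without overlap (0.75 ± 0.21, adjusted p = 0.10). The 3rd lenalidomide library of parental cells held 41571 counts, of which 12 were from SAMD9L. Without parental lenalidomide replicate 2, or without replicate 3, 1 of these genes passed. With each library left out in turn, 25 to 105 of all genes passed.

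Regrown and parental cells differed in none of 15 genes under DMSO by edgeR or DESeq2 (6.21% of 5941 genes passed), with 3 at an unadjusted p under 0.05. Among all 5941 genes, 1078 had such an unadjusted p by edgeR. UBE2L6, the enzyme that hands ISG15 to its ligases, had a log2 fold change of 0.60 ± 0.24 (adjusted p = 0.15). PARP14 came closest, at 51.5, 51.0 and 75.1 CPM in parental and 106, 85.0 and 125 CPM in regrown cells (0.81 ± 0.29, adjusted p = 0.097). Under lenalidomide none of 14 genes rose and 1 fell, against 1.20% and 1.57% of 4648 genes. The gene was SAMD9L, at 218, 161 and 268 CPM in parental and 49.6, 38.3 and 106 CPM in regrown cells (-1.47 ± 0.38, adjusted p = 0.031). That call was lost by DESeq2 and on leaving out any 1 of 4 libraries, 1 of them the shallow one (adjusted p up to 0.229 over the alternatives). The test of the difference in response between regrown and parental cells called none of 18 genes (0% of 6838 genes), by edgeR or DESeq2, with 2 at an unadjusted p under 0.05. Among all 6838 genes, 285 had such an unadjusted p by edgeR. SAMD9L had a difference of -1.32 ± 0.46 with an adjusted p of 1.00. Outside the 44 genes, IFITM3, a membrane protein that blocks virus entry, rose under lenalidomide from 787, 751 and 781 CPM to 2325, 2771 and 1566 CPM in parental cells (1.58 ± 0.16, adjusted p = 2.4e-08) and from 8.38, 5.31 and 10.8 CPM to 215, 115 and 60.1 CPM in regrown cells (3.84 ± 0.57, adjusted p = 0.00028).

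The ZFP91 table also compared cells with and without the induced knockout. The labels were checked on ZFP91 itself, which read 109, 113 and 107 CPM without and 92.4, 85.2 and 85.4 CPM with doxycycline in parental cells (-0.34 ± 0.08, adjusted p = 0.16), and 96.7, 97.0 and 89.6 CPM against 101, 83.5 and 78.1 CPM in regrown cells (-0.12, adjusted p = 0.39). Gene counts do not read small edits, so these levels do not check whether the gene was disrupted. In parental cells none of 38 genes passed by edgeR or DESeq2 (0.427% of 13354 genes passed), with 4 at an unadjusted p under 0.05. Among all 13354 genes, 1117 had such an unadjusted p by edgeR. IFIT3 (0.54 ± 0.17, adjusted p = 0.37) and IFIT2 (0.88 ± 0.33, adjusted p = 0.51) had the smallest p. With the length score as a covariate 3 genes passed, IFIT3, SAMD9 and SAMD9L.

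In regrown cells 37 genes were tested, 2 rose and 10 fell after the knockout, against a background of 16.3% and 15.7% of 13107 genes. SAMD9 fell from 309, 240 and 338 CPM to 188, 162 and 166 CPM (-0.79 ± 0.11, edgeR adjusted p = 0.00064), and SAMD9L from 123, 102 and 140 CPM to 93.4, 91.2 and 88.4 CPM (-0.42 ± 0.10, adjusted p = 0.0083). PARP14 fell from 139, 124 and 148 CPM to 94.2, 91.2 and 106 CPM (-0.50 ± 0.09, adjusted p = 0.0016). In these 3 genes the groups did not overlap. EIF2AK2, the double-stranded RNA kinase PKR, fell from 194, 166 and 239 CPM to 133, 129 and 143 CPM (-0.57 ± 0.11, adjusted p = 0.0027). DDX60, a helicase that assists RNA sensing, fell from 38.8, 37.3 and 44.3 CPM to 25.7, 29.3 and 30.3 CPM (-0.50 ± 0.11, adjusted p = 0.0040). MX2 (49.8, 42.9 and 43.8 CPM against 33.2, 34.5 and 35.6 CPM, -0.41 ± 0.09), GBP1 (-0.48 ± 0.12) and IFI6 (-0.49 ± 0.12) also fell without overlap. OAS2 read 10.2, 3.15 and 12.8 CPM against 3.59, 2.79 and 2.07 CPM (-1.63 ± 0.41, adjusted p = 0.0091) and GBP2 fell by 0.36 on the log2 scale, both with overlap. BST2 rose from 127, 152 and 108 CPM to 207, 200 and 187 CPM (0.61 ± 0.11, adjusted p = 0.0014), and DHX58, a regulator of the RNA sensors also called LGP2, from 29.1, 25.2 and 29.9 CPM to 32.4, 42.1 and 36.4 CPM (0.39 ± 0.12, adjusted p = 0.023). These 12 calls move with the length score, which was higher in every regrown library without doxycycline (0.10 to 0.45) than in any regrown knockout library (-0.16 to -0.07). With the score as a covariate none of the 12 genes passed, nor did any of the 13107 genes, and EIF2AK2 (0.02), GBP2 (0.15), OAS2 (0.08) and SAMD9L (0.02) changed sign. Whether the score or the knockout goes with these changes cannot be told apart in these 6 libraries.

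**Figure D3:**
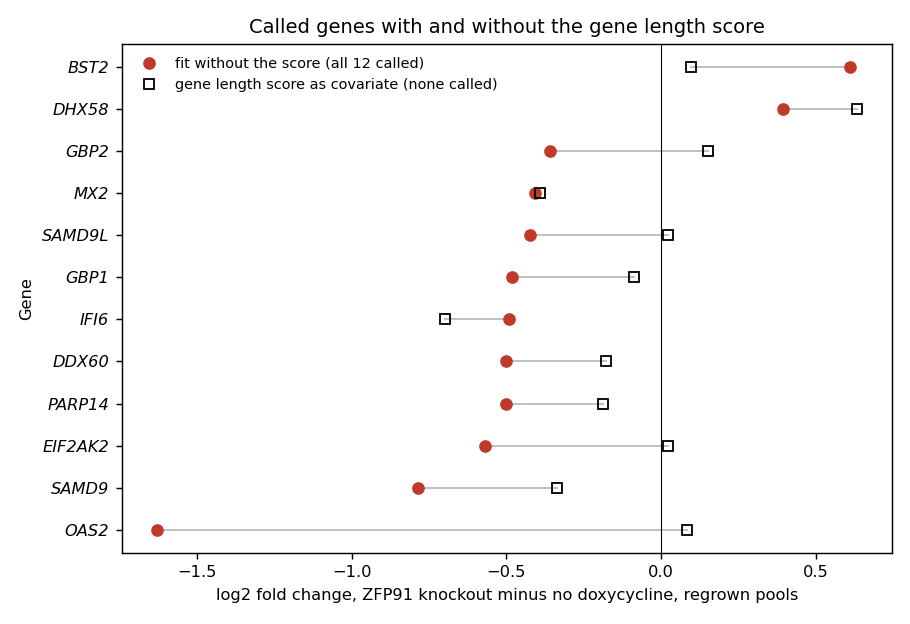
Log2 fold change, ZFP91 knockout minus no doxycycline in regrown cells, of the 12 genes that passed the test (filled points). Lines join each to its change with the gene length score as a covariate (open squares) and are not error bars. BST2 and DHX58 stand above 0 in the first fit, the other 10 stand below it, and none passes the test with the score in the model.

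The difference in knockout response between regrown and parental cells was past the threshold for 5 of 39 genes, 1 higher and 4 lower, against 4.47% and 5.33% of 14267 genes. DDX60 (-0.69 ± 0.20), IFIT3 (-0.88 ± 0.26), PARP14 (-0.51 ± 0.15) and GBP2 (-0.50 ± 0.15) had the lower response in regrown cells, with edgeR adjusted p of 0.045 to 0.048. GBP5 was higher (5.28 ± 1.51, adjusted p = 0.045), a value that depends on the prior count because regrown cells without doxycycline had no GBP5 count. The count of 5 was unstable. It fell to 0 or 1 on leaving out any 1 of 10 of the 12 libraries, reached 11 without parental knockout replicate 2 and 10 without regrown WT replicate 2, and was 0 with the length score as a covariate. With each library left out in turn, the count of all genes ran from 0 to 3355, so it was unstable too.

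CSNK2B expression set the last comparison. It was itself higher in regrown cells, at 8.35, 6.75 and 8.18 CPM in parental and 34.4, 30.7 and 31.5 CPM in regrown PRO-seq libraries. The vector raised CSNK2B from 30.7, 29.3 and 30.0 CPM to 251, 257 and 244 CPM in SU-DHL-1 (3.06 ± 0.05) and from 18.3, 15.7 and 18.2 CPM to 81.2, 80.7 and 76.6 CPM in KI-JK (2.19 ± 0.06). In SU-DHL-1, 40 genes were tested, none rose and 5 fell, against a background of 3.39% and 3.34% of 13727 genes. The median log2 fold change was -0.07 and that of all genes 0.00. SAMD9L fell from 154, 158 and 164 CPM to 120, 134 and 122 CPM (-0.34 ± 0.04, edgeR adjusted p = 8.8e-06), and SAMD9 from 313, 320 and 319 CPM to 251, 273 and 256 CPM (-0.29 ± 0.04, adjusted p = 1.3e-05). GBP1 fell from 26.2, 25.7 and 27.1 CPM to 22.7, 20.0 and 20.1 CPM (-0.33 ± 0.07, adjusted p = 0.0026). No group overlapped in these 3 genes. GBP2 (-0.16 ± 0.04, adjusted p = 0.0067) and IFI6 (-0.26 ± 0.08, adjusted p = 0.038) fell by less, and 3 genes remained called without empty vector replicate 1, GBP2 and IFI6 being the calls lost. With each library left out in turn, the count of all genes ran from 582 to 902.

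In KI-JK, 38 genes were tested, 3 rose and 17 fell, against 18.4% and 17.3% of 14104 genes. The share that fell was 44.7% of the genes tested. The median log2 fold change was -0.16 and that of all genes -0.01, and 30 of the 38 genes had a change below 0. GBP2 fell from 93.8, 90.3 and 84.9 CPM to 59.9, 58.2 and 56.9 CPM (-0.62 ± 0.05, adjusted p = 3.4e-09). STAT2 fell from 47.1, 53.0 and 50.7 CPM to 36.2, 35.0 and 33.3 CPM (-0.53 ± 0.06, adjusted p = 4.4e-07). OAS2 fell from 68.2, 70.3 and 69.7 CPM to 53.6, 52.0 and 52.0 CPM (-0.40 ± 0.05, adjusted p = 1.1e-06). Every overexpressing library was below every empty vector library in these 3 genes. TRIM22 (44.8, 50.2 and 48.7 CPM against 35.7, 34.4 and 36.7 CPM, -0.43 ± 0.06), SAMD9L (74.2, 82.8 and 79.4 CPM against 56.0, 58.0 and 64.9 CPM, -0.40 ± 0.06) and SAMD9 (97.3, 107 and 105 CPM against 78.9, 80.5 and 87.0 CPM, -0.32 ± 0.05) fell likewise. EPSTI1, an interferon-induced epithelial stromal interaction protein, had the lowest log2 change, from 5.02, 7.19 and 5.53 CPM to 2.68, 1.97 and 3.02 CPM (-1.20 ± 0.19, adjusted p = 3.4e-05). The other genes that fell were MX2, BST2, XAF1, DHX58, RSAD2, IFI6, IRF9, IFI44, IFIT3 and DDX60, with IRF9, IFI44 and DDX60 overlapping. Those that rose were EIF2AK2, from 177, 184 and 190 CPM to 210, 222 and 223 CPM (0.25 ± 0.04, adjusted p = 2.8e-05), PARP14 (110, 122 and 123 CPM against 128, 135 and 132 CPM, 0.16 ± 0.05, adjusted p = 0.0097) and CMPK2 (25.5, 28.6 and 29.4 CPM against 30.0, 35.8 and 30.2 CPM, 0.20 ± 0.07, adjusted p = 0.042). A list of 5 dendritic cell markers summed to 37.2 to 39.3 CPM with empty vector and 14.6 to 14.9 CPM with CSNK2B, with CLEC4C, FLT3 and LILRA4 at 0 in both, and 1 of the 5 was tested, ITGAX, which fell. The epithelial or stromal list summed to 253 to 293 CPM and 215 to 246 CPM, with 4 of 5 tested falling, and the myeloid list to 509 to 541 CPM and 558 to 642 CPM, with 2 of 5 tested rising and 1 falling. The part of these lists in the changes was not tested. DESeq2 called 13 of the 38, and 13 were called without CSNK2B vector replicate 2. The share of all genes that passed under these 2 settings is not given here.

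The response to CSNK2B differed between the lines for 9 of 43 genes tested, 2 higher and 7 lower in KI-JK than in SU-DHL-1, against 10.7% and 8.44% of 15564 genes. In either direction 20.9% of the 43 genes and 2984 of all 15564 genes passed. The vector raised CSNK2B itself further in SU-DHL-1 than in KI-JK, so line and CSNK2B level cannot be told apart in these differences. GBP2 fell in both lines and fell further in KI-JK (difference -0.45 ± 0.06, adjusted p = 4.2e-06). TRIM22 had 29.9, 32.8 and 32.2 CPM against 34.3, 35.3 and 34.1 CPM in SU-DHL-1, and its difference between lines was -0.55 ± 0.08. STAT2 had 74.9, 82.1 and 79.9 CPM against 75, 72.8 and 69.8 CPM in SU-DHL-1, with overlap, and a difference of -0.40 ± 0.08. EIF2AK2 (0.36 ± 0.06) and GBP1 (0.50 ± 0.12) had the higher response in KI-JK. These 5 differences kept direction and call in all 17 alternative settings. DHX58 (-0.37 ± 0.11), HERC6 (-1.98 ± 0.62), ISG20 (-1.05 ± 0.36) and DDX60 (-0.32 ± 0.11) also passed, though each lost its call in at least 2 settings. SAMD9L and SAMD9 fell in both lines, and their difference between lines did not pass.

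**Figure D4:**
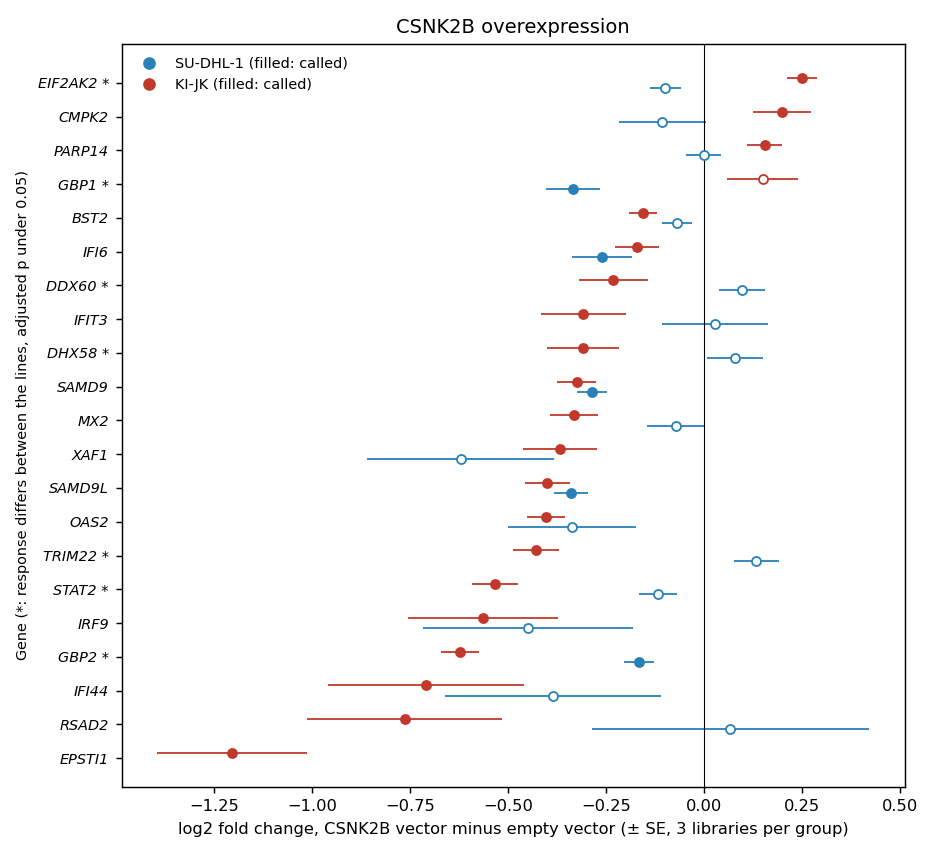
Log2 fold change, CSNK2B vector minus empty vector, of the 21 genes that passed in either line (SU-DHL-1 blue, KI-JK red, bars of 1 SE; filled points passed the test; a star marks a difference between the lines that passed). GBP2, SAMD9L and SAMD9 lie below 0 in both lines, and EIF2AK2 lies above 0 in KI-JK.

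**Figure D5:**
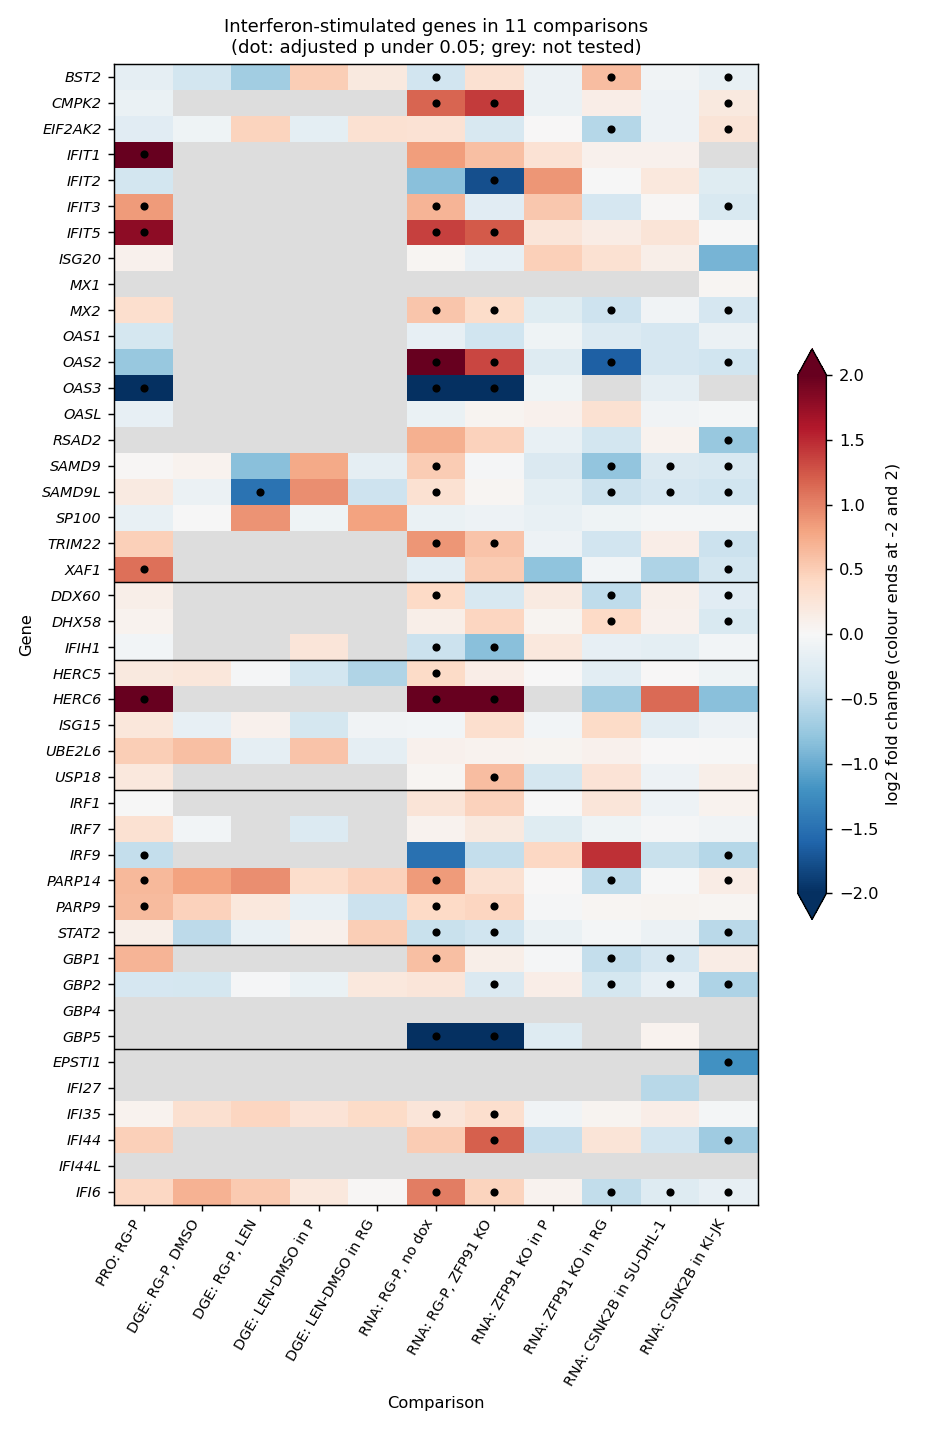
Log2 fold change of the 44 genes (down the side, by role) in the 11 comparisons between 2 groups (across), with dots for genes that passed the test and grey for genes not tested. The colour scale ends at 2 and at -2 on the log2 scale, so larger changes such as those of OAS3 share its end colour; comparisons that share libraries are not independent of each other.

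Over the 11 comparisons between 2 groups, 32 genes passed in at least 1 and 12 in none (OAS1, OASL, MX1, ISG20, SP100, ISG15, UBE2L6, IRF1, IRF7, IFI27, IFI44L and GBP4). IFI44L and GBP4 were tested in none of them. Neither was listed in PRO-seq, IFI44L was not listed in DGE, and elsewhere their counts were too few. SAMD9L and IFI6 passed most often, in 5 comparisons each, and 15 genes passed in opposite directions in different comparisons. Of the 42 genes tested in any comparison, 76.2% passed at least once and 35.7% in opposite directions, and of all 19780 genes tested in any, 61.3% and 18.4% did. Comparisons that share libraries, such as regrown against parental cells without doxycycline and the knockout in regrown cells, are not independent.

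The lines also differed in which genes they expressed, on tables that were counted separately and so were not tested against each other. MX1, a dynamin-like GTPase that blocks influenza virus, read 127, 121 and 133 CPM in KI-JK with empty vector and 0, 0 and 0.119 CPM in SU-DHL-1 with empty vector. OAS3 was the reverse, at 0.211, 0.0389 and 0.529 CPM in KI-JK and 16.8, 17.2 and 15.7 CPM in SU-DHL-1. OAS2 read 68.2, 70.3 and 69.7 CPM in KI-JK and 4.22, 4.87 and 4.33 CPM in SU-DHL-1. OASL read 35.7, 33.0 and 33.9 CPM against 3.26, 3.62 and 2.73 CPM. MX1 did not respond past the threshold to CSNK2B in KI-JK (0.03 ± 0.04, adjusted p = 0.61).

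The wider pathway was described with lists of further genes. Only the list of negative regulators also holds genes of the 44, ISG15 and USP18. NLRC5 and ADAR each stand in more than a single list, so the lists are not separate sets. Of 21 interferon genes, only IFNG, the gene of interferon gamma, was tested in any comparison. All 21 were listed in RNA-seq, but only 1 was listed in PRO-seq and only 1 in DGE. It fell in PRO-seq from 1.75, 3.30 and 2.37 CPM in parental to 0.121, 0.226 and 0.209 CPM in regrown cells (-3.68 ± 0.38, edgeR adjusted p = 6.6e-05), and in SU-DHL-1 with CSNK2B from 3.14, 2.57 and 2.79 CPM to 1.10, 1.13 and 1.40 CPM (-1.24 ± 0.23, adjusted p = 0.0010). Of 11 receptors and proximal signalling genes, 10 were tested in PRO-seq, none rose and 4 fell, where 14.0% of all genes rose and 16.2% fell. In RNA without doxycycline 9 were tested, 1 rose and 2 fell, where 22.6% of all genes rose and 21.1% fell. IFNGR1, the ligand-binding chain of the interferon gamma receptor, was the most changed. It fell in PRO-seq from 411, 406 and 378 CPM to 101, 78.7 and 74.1 CPM (-2.24 ± 0.13, adjusted p = 2.7e-06), in RNA from 190, 212 and 216 CPM to 45.9, 51.3 and 45.4 CPM (-2.12 ± 0.10, adjusted p = 1.7e-09), and in DGE under DMSO (-1.48 ± 0.34, adjusted p = 0.0058). Every regrown library of these assays was below every parental one. IFNAR1 fell (-0.38 ± 0.09, adjusted p = 0.0034) and JAK1 rose (0.46 ± 0.09, adjusted p = 0.0011) in RNA without doxycycline.

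Of 22 genes of nucleic acid sensing, 17 were tested in RNA without doxycycline, 9 rose and 6 fell (all genes 22.6% and 21.1%), and 18 in PRO-seq, 5 rose and 1 fell (all genes 14.0% and 16.2%). MAVS, the mitochondrial adaptor of the RNA sensors, fell in PRO-seq from 148, 155 and 152 CPM to 80.7, 96.8 and 79.8 CPM (-0.82 ± 0.10, adjusted p = 0.00019). IKBKE, a kinase that activates interferon regulatory factors, rose there from 0.731, 0.972 and 1.17 CPM to 7.69, 7.72 and 3.48 CPM (2.71 ± 0.35, adjusted p = 0.00027). Of 13 negative regulators, ISG15 and USP18 among them, 12 were tested in RNA without doxycycline, 4 rose and 1 fell, against the same 22.6% and 21.1%. Of 39 other interferon-stimulated genes, 31 were tested in RNA without doxycycline, 14 rose and 6 fell, against those shares. In KI-JK with CSNK2B 5 of 32 rose and 13 fell, where 18.4% of all genes rose and 17.3% fell. IFITM3 fell in regrown cells from 121, 143 and 183 CPM to 1.88, 1.18 and 1.02 CPM (-6.76 ± 0.21, adjusted p = 5.1e-11). RNF213, a large ubiquitin ligase, rose there from 231, 252 and 186 CPM to 758, 561 and 596 CPM (1.52 ± 0.13, adjusted p = 5.6e-07).

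Of 16 genes of MHC class I presentation, 14 were tested in PRO-seq, 3 rose and none fell (all genes 14.0% and 16.2%), and 15 in RNA without doxycycline, 6 rose and 7 fell (all genes 22.6% and 21.1%). HLA-E, a class I molecule read by natural killer cells, rose in PRO-seq from 23.6, 21.1 and 23.9 CPM to 62.5, 58.7 and 56.4 CPM (1.37 ± 0.10, adjusted p = 1.0e-05). PSMB8, a subunit of the immunoproteasome, fell in RNA from 110, 109 and 123 CPM to 60.8, 65.1 and 50.6 CPM (-0.95 ± 0.11, adjusted p = 7.2e-06). In KI-JK with CSNK2B, 10 of 16 class I genes fell and 1 rose, against 17.3% and 18.4% of all genes, with B2M, the light chain of class I molecules, going from 859, 842 and 827 CPM to 676, 685 and 708 CPM (-0.29 ± 0.03, adjusted p = 5.8e-07). Members of the OAS, IFIT, GBP, IFITM and HLA families share sequence, and how reads that match several genes were counted is not given in the sources used here, so reads may be split between them.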

How the data were processed

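Gene counts from PRO-seq, 3′ end counting (DGE) and RNA-seq were used, in 5 tables with 42 libraries in 14 groups of 3; the 38 ChIP-seq samples were not analysed here. The deposited values were raw counts per gene, not normalized. Per the submitters' processing notes, the tools named were cutadapt 1.14, Bowtie 1.2.2, Bowtie2 2.2.3, featureCounts 1.6.2, FastQC, STAR 2.6.1d, DESeq2 1.20.0 and edgeR 3.24.3, with builds hg38 and hg19. Use of strand and of reads that match several genes is not given in the sources used here.

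Each comparison was fitted on its own groups with edgeR 4.0.16 in R 4.3.3 (filterByExpr with a minimum count of 10, TMM scaling, quasi-likelihood test). P-values were Benjamini-Hochberg adjusted over all genes tested, and a gene passed at an adjusted p under 0.05. There were 14 comparisons, of which 11 were between 2 groups and 3 tested a difference in response. CPM values are TMM-scaled. The SE of a log2 fold change is its size divided by the square root of F. Alternatives were DESeq2 1.42.0 size factors, library size alone, no filter on low counts, the DESeq2 test, a replicate block, leaving out each library and, chosen after seeing the data, the gene length score as a covariate in the ZFP91 table. The fits were tested on simulated data.

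No pair of replicates agreed within sampling noise: the smallest chi-square per degree of freedom was 1.34. Depth ranged from 41571 counts (DGE) to 47199672 (PRO-seq). Intervals from counts are exact at 95% and cover counting error only, and the floor for a group at 0 is 3 counts. The 44 genes and the other lists were chosen with earlier results of these data known. Values per library were given for genes that passed, up to 6 in each direction by adjusted p, for genes that passed in 3 or more comparisons, in opposite directions or in a difference in response, and for the genes of smallest p where none passed; of the other lists, only some of the up to 3 genes per list and comparison that this rule allows are named.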

Additional observations from a re-analysis of the deposited data

Results flagged for a closer look

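The response to the ZFP91 knockout differed between regrown and parental cells for 5 of the 39 genes tested, 1 higher and 4 lower in regrown cells, by edgeR's test of the difference itself, where 4.47% of all genes tested were higher and 5.33% lower. In either direction 12.8% of the 39 genes passed, beside 1399 of all 14267 genes. Leaving out 1 library at a time gave 0 to 11, and 0 to 3355 for all genes. On the log2 scale the difference, regrown minus parental, was 5.28 for GBP5, -0.69 for DDX60, -0.88 for IFIT3, -0.51 for PARP14 and -0.50 for GBP2. None of the 5 passed with the gene length score as a covariate, and the value for GBP5 depends on the prior count. DDX60 was lower after the knockout in regrown cells, while GBP5 counts went from 0 to 13 there.

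The response to CSNK2B differed between KI-JK and SU-DHL-1 for 9 of 43 genes tested, 2 higher and 7 lower in KI-JK, by the same kind of test, where 10.7% of all genes were higher and 8.44% lower. In either direction 20.9% of the 43 genes passed, beside 2984 of all 15564 genes, so the count alone does not set these genes apart. CSNK2B itself rose further in SU-DHL-1 than in KI-JK, so line and CSNK2B level cannot be told apart. The difference, KI-JK minus SU-DHL-1, was -0.45 for GBP2, -0.55 for TRIM22, -0.40 for STAT2, -0.37 for DHX58, -1.98 for HERC6, -1.05 for ISG20 and -0.32 for DDX60, and it was 0.36 for EIF2AK2 and 0.50 for GBP1. HERC6 read 0.460, 0.278 and 0.237 CPM with empty vector and 0.731, 0.768 and 0.778 CPM with CSNK2B in SU-DHL-1, against 0.633, 1.48 and 1.06 CPM and 0.439, 0.545 and 0.764 CPM in KI-JK. ISG20 read 5.81, 6.12 and 5.82 CPM with empty vector and 5.90, 6.75 and 6.54 CPM with CSNK2B in SU-DHL-1, against 1.22, 1.71 and 1.34 CPM and 1.27, 0.712 and 0.312 CPM in KI-JK. GBP1 read 17.3, 15.0 and 15.6 CPM with empty vector and 17.4, 15.8 and 19.8 CPM with CSNK2B in KI-JK, where it overlapped, while it fell in SU-DHL-1.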

How the results depend on the processing

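Of 177 alternative counts of the 44 genes that passed, 147 lay within 1.5 times the reported count. The 177 include comparisons with a reported count of 0, where leaving out 1 library gave at most 1. The 147 therefore does not describe the comparisons with calls alone. With the gene length score as a covariate the count went from 21 to 10 for regrown against parental cells without doxycycline (all genes 3151), from 0 to 3 for the knockout in parental cells (all genes 1188), from 12 to 0 for the knockout in regrown cells (all genes 0) and from 5 to 0 for the difference in knockout response (all genes 107). With it BST2 (0.064) and SAMD9L (-0.036) changed sign in the first, and EIF2AK2 (0.022), GBP2 (0.15), OAS2 (0.085), SAMD9L (0.021) and PSME2 (-0.012) in the third. The DESeq2 test gave 0 in place of 1 for DGE regrown against parental under lenalidomide (all genes 66) and 13 in place of 20 in KI-JK. It also called 217 of all genes for regrown against parental under DMSO, 26 for lenalidomide in parental cells, 153 for the knockout in parental cells, 580 in SU-DHL-1 and 2281 for the difference in knockout response. That difference passed for 2 of the 44 genes with library size alone and for 8 without the filter (all genes 2333). Without the filter, 20 of all genes passed for lenalidomide in regrown cells and 231 for the knockout in parental cells. The cause was not tested.

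Leaving out 1 library gave these ranges for the 44 genes and for all genes: PRO-seq 7 to 9 and 3245 to 5322, DGE under DMSO 0 to 0 and 222 to 512, DGE under lenalidomide 0 to 1 and 23 to 149, lenalidomide in parental cells 0 to 1 and 25 to 105, lenalidomide in regrown cells 0 to 0 and 7 to 13. For regrown against parental RNA they were 17 to 23 and 4606 to 6401 without doxycycline and 10 to 23 and 3731 to 6056 after the knockout. For the knockout they were 0 to 0 and 0 to 110 in parental cells and 9 to 16 and 2410 to 5519 in regrown cells. For CSNK2B they were 3 to 5 and 582 to 902 in SU-DHL-1 and 13 to 18 and 4246 to 4666 in KI-JK. For the differences in response they were 0 to 0 and 0 to 1 (lenalidomide), 0 to 11 and 0 to 3355 (knockout), and 6 to 9 and 2303 to 2874 (CSNK2B).

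With the replicate number as a replicate block, the counts of the 44 genes in PRO-seq, in the 4 DGE comparisons, in RNA without doxycycline and after the knockout, for the knockout in parental and regrown cells and in SU-DHL-1 and KI-JK were 11, 0, 1, 0, 0, 20, 18, 0, 14, 6 and 21. For the 3 differences in response they were 0, 7 and 11 (all genes 1 for lenalidomide and 2257 for the knockout). The other counts of all genes under the block are not given here, so those counts of the 44 genes are not set against a background. By the labels only regrown libraries under lenalidomide and DMSO, or with and without the knockout, share a numbered pool. Parental libraries carry matching replicate numbers too, and the labels do not say what those numbers stand for. No comparison had every same-numbered pair correlated above 0.1. DGE depth limits what could be tested, and genes near 1 CPM rest on few counts.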
